A study of Mus musculus with 10 samples.

Results

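The genes described here are 9 members of cytokine signaling in CD8+ T cells: the transcription factors Stat3, Stat4, Stat5a, Stat5b and Stat6 and the feedback inhibitors Cish, Socs1, Socs2 and Socs3. They were selected by gene symbol, 9 of the 57825 genes listed, and each symbol had 1 entry. The 9 genes were compared in RNA sequencing of CD8+ T cells that had been co-cultured with 4T1 cells, a tumor line from the mammary gland of Balb/c mice, in 5 samples without sodium acetate (CD8+4T1) and 5 samples with it (CD8+4T1+NaAc). All T cells came from spleens of female Balb/c mice of 7 to 8 weeks according to the methods, with no genetic change named. Before the groups were divided, the cells of both were activated for 12 h on plate-bound anti-CD3 with anti-CD28 and with IL-2, which is itself a ligand of this pathway. Sodium acetate was given at 5 mM for 24 h and co-culture with 4T1 cells followed for 48 h. The labels give day 3 for every sample and call all of them CD8+ T cells. According to the methods, RNA was taken from purified CD8+ T cells. Neither the labels nor the methods say that the samples of a group came from separate mice or cultures, so each p-value measures the spread between these samples, which may be technical. The comparison asks whether transcripts of these signaling genes differed when acetate was present during co-culture.

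Cytokine receptors of this class carry Janus kinases (JAKs) on their inner side, and binding of the ligand brings the kinases together to phosphorylate the receptor. STAT proteins dock there, are phosphorylated in turn, pair up and enter the nucleus to activate transcription. Among the genes switched on are Cish and the Socs genes, whose proteins bind the receptor or the kinase and damp the signal, so a high level of these transcripts is a common trace of recent cytokine signaling. In CD8+ T cells, IL-2, IL-7 and IL-15 act mainly through STAT5, IL-12 through STAT4, IL-4 through STAT6, and IL-6, IL-10, IL-21 and IL-27 largely through STAT3.

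Levels are given as FPKM, which corrects the fragments of a gene for its length and for the depth of the library, so genes can be compared with each other per length. The FPKM of a sample refer to between 16306447 and 18853726 fragments, and the members rested on between 236 fragments (Socs2) and 15691 fragments (Stat3) in a sample. Differences are on the log2(FPKM + 0.1) scale, from limma fitted to the 15710 genes that averaged 0.5 FPKM or more, and a gene counts as called where its p-value, adjusted by Benjamini and Hochberg, was under 0.05. All 9 members passed that filter. Replicate 1 had the fewest genes above 0 in each group, 22291 against 23786 to 24054 in the other CD8+4T1 samples and 20233 against 24681 to 25088 in the other CD8+4T1+NaAc samples. The markers of the labelled cell type were present: the 11 T cell markers summed to between 821 and 930 FPKM in CD8+4T1 samples and to between 697 and 833 FPKM in CD8+4T1+NaAc samples, and 7 of them were called lower, 1 higher and 3 not called (19.0% of all genes were called lower). The 20 markers of 4T1 and epithelial cells summed to between 27.4 and 41.7 FPKM without acetate and to between 145 and 317 FPKM with it. The summed levels of the 4T1 list thus did not overlap between the groups, and in bulk samples fewer cells of a type and less RNA per cell cannot be told apart.

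With acetate, 3 members were higher and none was called lower. Socs3, an inhibitor that acts on receptors of the IL-6 family, rose 2.20-fold, Socs1, an inhibitor of the kinases themselves, rose 1.66-fold, and Stat3 rose 1.14-fold (limma, adjusted p = 0.00110, 0.00936 and 0.0245). Stat4, Stat5a, Stat5b, Stat6, Cish and Socs2 did not pass the test. A share of 3 of 9 members called is close to the background, since 36.5% of all genes tested were called in either direction, 17.6% higher and 19.0% lower. Socs3 was also the single member whose groups did not overlap, where 26.4% of all genes tested did not overlap, and the single member called with a log2 fold change above 1, where 6.47% of all genes were called with an absolute change above 1. The median log2 fold change of the 9 members was 0.01, beside -0.02 for all genes tested. Without replicate 1 of both groups, Stat3, Socs1 and Socs3 remained called, at 0.18, 0.76 and 1.06, and Stat5a and Socs2 were called too, at 0.16 and -0.37. The balance of the members depends on how the samples are scaled. Rescaling each sample to the same total FPKM raised the median of all genes to 0.15 and turned the calls from 2764 higher and 2978 lower to 4900 higher and 1387 lower. Scaling to the T cell markers raised the median to 0.19 and gave 5127 higher and 1050 lower. Under both scalings 5 members were called, all higher (Stat3, Stat5a, Stat6, Socs1 and Socs3), and Stat4 and Stat5b changed sign to 0.11 and 0.08 and to 0.14 and 0.11.

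**Figure D1:**
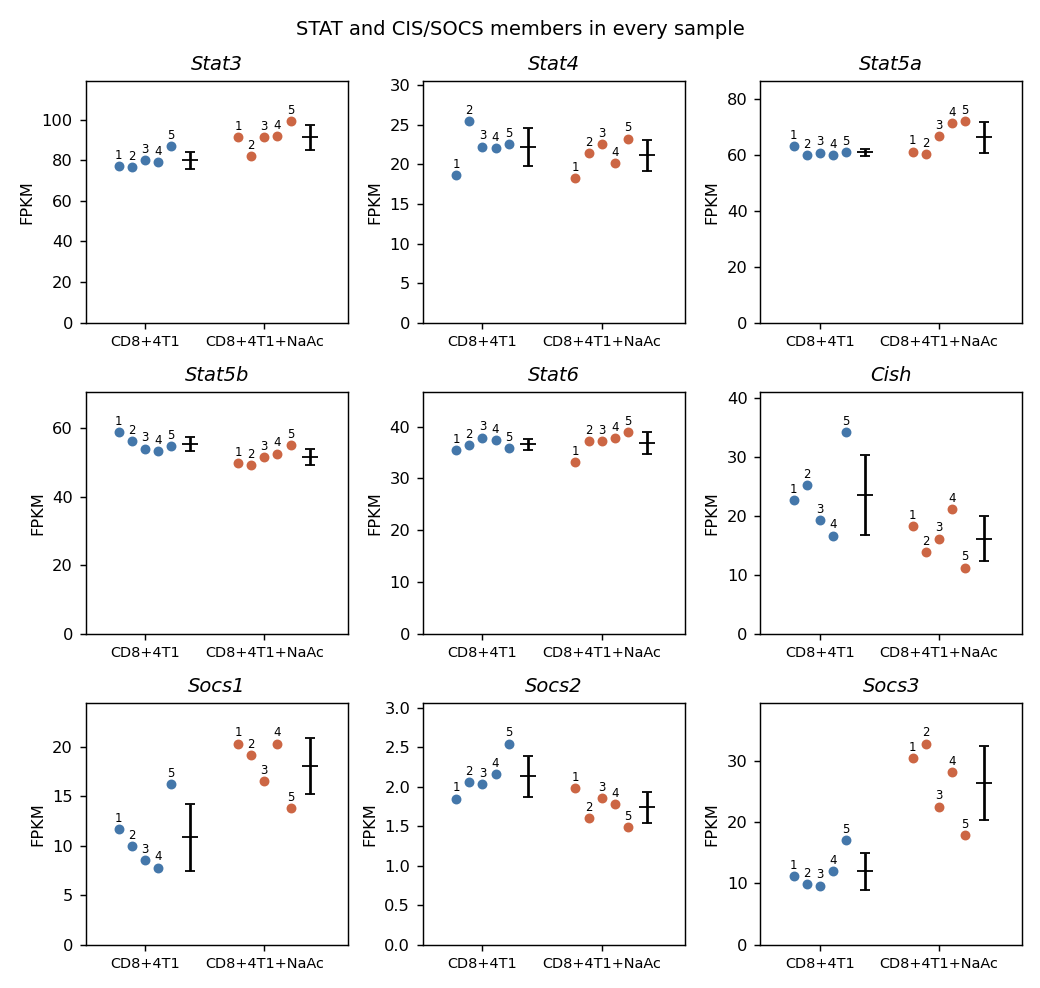
FPKM of each member (vertical axes, starting at 0) in the 5 CD8+4T1 and 5 CD8+4T1+NaAc samples; each point is a sample with its replicate number, and the bar beside each group gives its mean ± SD. The groups separate fully for Socs3, where the lowest sample with acetate is at 17.9 FPKM and the highest without it at 17.0 FPKM.

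Among the transcription factors, Stat3 was the most abundant member in both groups. Its product carries signals of IL-6, IL-10, IL-21 and IL-27. Stat3 (ENSMUSG00000004040, chromosome 11, 100775924 to 100830366, minus strand in the deposited table) was at 77.1, 76.6, 79.9, 79.0 and 86.9 FPKM in replicates 1 to 5 of CD8+4T1 and at 91.5, 82.1, 91.4, 92.0 and 99.2 FPKM in those of CD8+4T1+NaAc. Of the 5 samples with acetate, 4 lay above the highest sample without it, and replicate 2 lay within the range of the control samples. The means were 79.9 ± 4.12 FPKM (SD, n = 5) and 91.3 ± 6.06 FPKM (SD, n = 5), a log2 difference of 0.19 with a standard error of 0.06 and a 95% interval from 0.06 to 0.32 (limma, adjusted p = 0.0245; exact two-sided permutation test of this gene alone, p = 0.0159). The call rested on the full set of samples: it was lost when any one of CD8+4T1 replicates 1 to 4 or of CD8+4T1+NaAc replicates 3 to 5 was left out, with adjusted p up to 0.0590, while the log2 difference stayed between 0.16 and 0.23.

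Stat5a and Stat5b are close copies that lie side by side on chromosome 11 and transmit the IL-2, IL-7 and IL-15 signal. Stat5a (ENSMUSG00000004043, 100750177 to 100775995, plus strand) was at 63.2, 59.9, 60.9, 60.0 and 61.1 FPKM in CD8+4T1 and at 61.3, 60.4, 66.9, 71.6 and 72.2 FPKM in CD8+4T1+NaAc. The control samples were tightly packed, and 3 of 5 samples with acetate lay above all of them while replicates 1 and 2 did not. The means of 61.0 ± 1.34 and 66.5 ± 5.56 FPKM (SD, n = 5 each) gave a log2 difference of 0.12 with a 95% interval from -0.01 to 0.25 (limma, adjusted p = 0.136). Stat5b (ENSMUSG00000020919, 100671557 to 100741550, minus strand) was at 58.7, 56.1, 54.0, 53.2 and 54.7 FPKM in CD8+4T1 and at 49.9, 49.2, 51.5, 52.5 and 55.0 FPKM in CD8+4T1+NaAc. Here 4 of 5 samples with acetate lay below the lowest control sample, and replicate 5 lay within the control range. The means of 55.3 ± 2.17 and 51.6 ± 2.32 FPKM (SD, n = 5 each) gave a log2 difference of -0.10 with a 95% interval from -0.20 to 0.00 (limma, adjusted p = 0.116). Neither copy was called, and the sign of Stat5b depends on the scaling as given above.

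The balance between the copies did differ. The log2 ratio of Stat5a to Stat5b within a sample, which does not depend on the scaling of the sample, was 0.14 ± 0.04 (SD, n = 5) in CD8+4T1 and 0.36 ± 0.06 (SD, n = 5) in CD8+4T1+NaAc, a difference of 0.22 with no overlap of the groups. The exact two-sided permutation test gave p = 0.00794, the smallest that 5 against 5 samples allow, and an adjusted p of 0.0238 over the 3 ratios compared within the members. With the replicate number as a block and without replicate 1 of both groups the ratio did not pass (permutation tests, adjusted p = 0.1875 and 0.0857). Those designs allow no unadjusted p under 0.0625 and 0.0286. Reads that fit both copies could be divided between them by the counting. Stat5a also shares 72 bases with the end of Stat3 on the opposite strand, and the strand setting of the counting is not given in the sources used here.

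Stat4 and Stat6 stayed within the spread between samples. Stat4 (ENSMUSG00000062939, chromosome 1, 52026307 to 52146348, plus strand), which carries the IL-12 signal toward IFN-γ production, was at 18.7, 25.5, 22.3, 22.0 and 22.6 FPKM in CD8+4T1 and at 18.3, 21.4, 22.6, 20.2 and 23.3 FPKM in CD8+4T1+NaAc. The ranges of both groups overlapped almost fully, and replicate 1 was the lowest sample in each. The log2 difference was -0.07 with a 95% interval from -0.26 to 0.13 (limma, adjusted p = 0.580), and its sign turned under both scalings given above. Stat6 (ENSMUSG00000002147, chromosome 10, 127478855 to 127496826, plus strand), the IL-4 factor, was at 35.5, 36.4, 37.9, 37.5 and 35.8 FPKM in CD8+4T1 and at 33.2, 37.2, 37.2, 37.8 and 38.9 FPKM in CD8+4T1+NaAc. Replicate 1 with acetate was the lowest of the 10 samples and replicate 5 with acetate the highest. The log2 difference was 0.01 with a 95% interval from -0.10 to 0.12 (limma, adjusted p = 0.907), and it was called higher, at 0.19 and 0.22, only under the same-total and the T cell marker scaling.

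Socs3 showed the clearest difference among the members. Its protein binds the gp130 receptor chain and the JAK attached to it, and Socs3 is a well-known target of STAT3. To show what lies before the start of the 2 inhibitor genes that rose, the 250 bases upstream of the RefSeq start in GRCm38.p6 are given for each, 5′ to 3′ on the strand of the gene. The capitals in the first mark the only match among the members to TTCNNNGAA, the letters to which STAT dimers are known to bind, which reads the same on both strands.
Socs3, chr11:117969367-117969616, minus strand: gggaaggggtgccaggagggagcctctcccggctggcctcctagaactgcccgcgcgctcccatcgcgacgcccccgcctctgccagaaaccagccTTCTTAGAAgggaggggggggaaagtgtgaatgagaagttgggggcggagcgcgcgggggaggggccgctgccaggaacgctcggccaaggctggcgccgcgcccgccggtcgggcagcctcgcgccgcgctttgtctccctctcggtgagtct
Socs1, chr16:10785537-10785786, minus strand: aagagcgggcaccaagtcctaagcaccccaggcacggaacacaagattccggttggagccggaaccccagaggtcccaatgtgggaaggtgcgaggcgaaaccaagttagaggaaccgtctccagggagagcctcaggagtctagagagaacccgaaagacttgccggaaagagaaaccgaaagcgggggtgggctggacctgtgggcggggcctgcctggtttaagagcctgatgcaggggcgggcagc
The match in Socs3 lies 154 to 146 bases upstream of the start. The Socs1 window holds none and is printed without capitals. Of 11 windows for the 8 members found in the promoter table, 1 held TTCNNNGAA, beside 7.02% of all 32851 windows of the same length, and none held TTC and GAA separated by 4 bases, the spacing that STAT6 prefers, beside 5.85% of all windows. Socs2 is missing from that table. A match is a string of letters in the reference genome and was not measured as a binding site here.

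Socs3 (ENSMUSG00000053113, chromosome 11, 117856905 to 117860873, minus strand in the deposited table, whose build differs from GRCm38) was at 11.2, 9.84, 9.65, 12.05 and 17.0 FPKM in CD8+4T1 and at 30.4, 32.8, 22.5, 28.1 and 17.9 FPKM in CD8+4T1+NaAc. All 5 samples with acetate lay above all 5 without it, by a narrow margin between replicate 5 of both groups. The means were 11.9 ± 3.01 and 26.3 ± 6.07 FPKM (SD, n = 5 each), a log2 difference of 1.13 with a standard error of 0.19 and a 95% interval from 0.71 to 1.56 (limma, adjusted p = 0.00110; exact two-sided permutation test, p = 0.00794). It remained called with any 1 sample left out, at log2 differences from 1.04 to 1.27. It was also called under the 3 other scalings, at 1.14 (median ratios), 1.31 (same total) and 1.34 (T cell markers). Each of these moved it upward, so they are a weak check of a rise.

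Socs1, whose protein blocks the catalytic site of JAKs and limits interferon and common gamma chain cytokine signals, rose as well. Socs1 (ENSMUSG00000038037, chromosome 16, 10600104 to 10603400, minus strand in the deposited table) was at 11.7, 9.99, 8.54, 7.78 and 16.2 FPKM in CD8+4T1 and at 20.3, 19.2, 16.5, 20.3 and 13.8 FPKM in CD8+4T1+NaAc. Replicate 5 was the exception in each group, highest of the control samples and lowest of those with acetate, so that 4 of 5 samples with acetate lay above the highest control sample. The means of 10.8 ± 3.34 and 18.0 ± 2.82 FPKM (SD, n = 5 each) gave a log2 difference of 0.76 with a standard error of 0.19 and a 95% interval from 0.34 to 1.18 (limma, adjusted p = 0.00936; exact two-sided permutation test, p = 0.0159). With any 1 sample left out the difference remained called, between 0.66 and 0.92.

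Cish and Socs2, both well-known STAT5 targets in T cells, were lower on average but did not pass the test. Cish (ENSMUSG00000032578, chromosome 9, 107173225 to 107179983, plus strand), whose protein competes for docking sites on the IL-2 receptor and also dampens T cell receptor signals, was at 22.7, 25.3, 19.2, 16.6 and 34.2 FPKM in CD8+4T1 and at 18.3, 13.8, 16.2, 21.1 and 11.2 FPKM in CD8+4T1+NaAc. The ranges overlapped, and replicate 5 was the highest sample without acetate and the lowest with it. The means of 23.6 ± 6.76 and 16.1 ± 3.84 FPKM (SD, n = 5 each) gave a log2 difference of -0.54 with a 95% interval from -1.0 to -0.07 (limma, adjusted p = 0.0692; exact two-sided permutation test, p = 0.0556). Cish was called lower when CD8+4T1 replicate 4 or CD8+4T1+NaAc replicate 4 was left out and with voom on the recovered fragments, where the log2 difference was -0.57. Socs2 (ENSMUSG00000020027, chromosome 10, 95221224 to 95253042, minus strand), best known as a brake on growth hormone receptors, was the least abundant member, at 1.85, 2.06, 2.04, 2.16 and 2.55 FPKM in CD8+4T1 and at 1.98, 1.60, 1.86, 1.78 and 1.49 FPKM in CD8+4T1+NaAc. Of the samples with acetate, 3 of 5 lay below the lowest control sample. The log2 difference was -0.28 with a 95% interval from -0.53 to -0.02 (limma, adjusted p = 0.0822; exact two-sided permutation test, p = 0.0238), and it was called lower without CD8+4T1+NaAc replicate 1, with sample weights and with voom. Both genes moved toward 0 after rescaling to the same total, Cish to -0.36 and Socs2 to -0.11 (limma, adjusted p = 0.222 and 0.504), and after scaling to the T cell markers, to -0.33 and -0.07 (limma, adjusted p = 0.300 and 0.695).

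**Figure D2:**
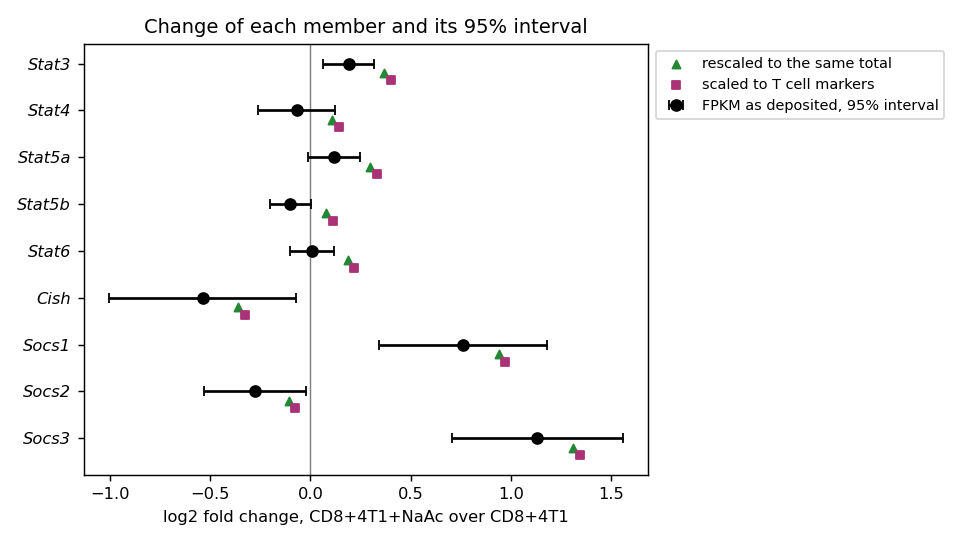
Log2 fold change of each member (horizontal axis, CD8+4T1+NaAc over CD8+4T1) with its 95% interval as a black bar, and the same change after rescaling to the same total FPKM (triangles) and after scaling to the T cell markers (squares). The intervals of Stat3, Socs1 and Socs3 lie above 0 and those of Cish and Socs2 below it, and both scalings move every member upward by a similar amount.

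The 4 inhibitors thus changed their order per length. By FPKM, Cish was the highest of them in all 5 CD8+4T1 samples and Socs3 in all 5 CD8+4T1+NaAc samples. This order and the sizes of the shares below rest on the deposited gene lengths, 6419 bases for Cish and 2891 bases for Socs3. In fragments, which are not corrected for length, Cish stayed above Socs3 in replicates 1, 3, 4 and 5 with acetate and fell below it in replicate 2. As a share of the summed FPKM of the 4, which is free of the scaling, Cish made up 48.4% ± 3.74 (SD, n = 5) without acetate and 25.9% ± 3.51 with it, while Socs3 made up 24.9% ± 3.81 and 42.1% ± 3.92. These shares did not overlap: Cish lay between 43.1% and 53.6% and then between 20.5% and 29.6%, and Socs3 between 20.9% and 31.2% and then between 39.4% and 48.7%. Socs1 took 22.2% ± 1.76 and 29.1% ± 1.10, and Socs2 4.54% ± 0.830 and 2.86% ± 0.438. The shares of these genes did not overlap between the groups either, so separation is not particular to Cish and Socs3. Parts of the same sum are not independent of each other, and 26.4% of all genes tested did not overlap in their own levels. The summed level was 48.5 ± 12.7 FPKM without acetate and 62.2 ± 11.5 FPKM with it. In replicate 5 the shares of Cish and Socs3 lay inside the range of the other samples of its group, although it was the highest control sample and the lowest sample with acetate in the level of each of the 4 genes.

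**Figure D3:**
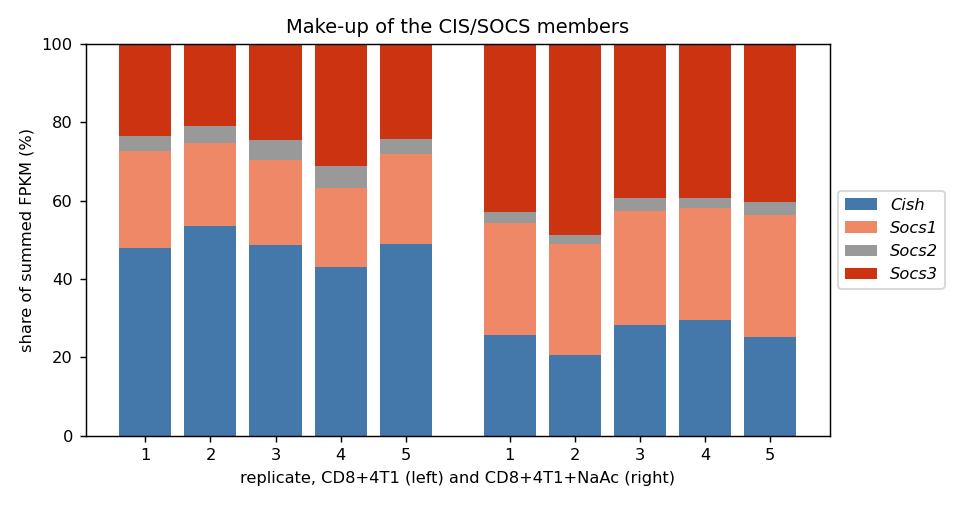
Share of Cish, Socs1, Socs2 and Socs3 in their summed FPKM (vertical axis, percent, from 0 to 100) in each of the 5 CD8+4T1 samples (left) and 5 CD8+4T1+NaAc samples (right). Cish is the largest part of every bar on the left and Socs3 the largest part of every bar on the right.

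Within the pairs of inhibitors the other 2 ratios compared did not pass the adjusted test. The log2 ratio of Socs1 to Socs3, the inhibitors that act on JAKs, was -0.16 ± 0.28 without and -0.53 ± 0.16 with acetate (SD, n = 5 each), a difference of -0.37 (exact two-sided permutation test, p = 0.0397, adjusted p = 0.0595). The log2 ratio of Cish to Socs2 was 3.37 ± 0.33 and 3.11 ± 0.24 (SD, n = 5 each), a difference of -0.26 (exact two-sided permutation test, p = 0.190, adjusted p = 0.190). Both passed when CD8+4T1 replicate 4 was left out, at -0.49 and -0.38 (exact permutation test, adjusted p = 0.0119 and 0.0476).

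Per length, the order of the members was Stat3, Stat5a, Stat5b, Stat6, Cish, Stat4, Socs3, Socs1 and Socs2 in CD8+4T1. The neighbours Cish and Stat4, and Socs3 and Socs1, had overlapping ranges, and every other neighbouring pair was separated in all 5 samples. In CD8+4T1+NaAc the order was Stat3, Stat5a, Stat5b, Stat6, Socs3, Stat4, Socs1, Cish and Socs2. From Socs3 down to Cish each neighbour overlapped with the next in its range, although within each sample Socs3 lay above both Socs1 and Cish. The STAT members together reached 255.1 ± 3.55 FPKM without and 267.4 ± 15.5 FPKM with acetate (SD, n = 5 each).

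Upstream of the STATs, the cytokine receptor chains were called more often higher than lower. Of 19 chains listed, 17 passed the filter, 8 were called higher, 3 lower and 6 were not called, beside 17.6% of all genes called higher and 19.0% called lower, with a median log2 fold change of 0.15 beside -0.02 for all genes tested. Il7r, the IL-7 receptor chain kept by long-lived T cells, rose from 13.6 ± 0.722 to 24.4 ± 3.95 FPKM (SD, n = 5 each), a log2 fold change of 0.82 with a standard error of 0.10 (limma, adjusted p = 0.000184). Il10ra, the ligand-binding chain for IL-10, rose by 0.71 on the log2 scale from 14.7 to 23.98 FPKM (limma, adjusted p = 0.00137), and Il6st, which encodes gp130, rose by 0.65 from 4.29 to 6.82 FPKM (limma, adjusted p = 0.000153). No sample with acetate overlapped with a control sample in these 3 genes, where 26.4% of all genes tested did not overlap. Il15ra, the chain that presents IL-15, fell by 0.48 on the log2 scale from 10.5 to 7.56 FPKM (limma, adjusted p = 0.00157). The split was 10 higher and 1 lower after rescaling to the same total and 11 higher and 0 lower after scaling to the T cell markers (all genes: 4900 higher and 1387 lower, and 5127 higher and 1050 lower). In the second of these Il15ra at -0.27 was no longer called (limma, adjusted p = 0.0507).

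Of the 4 JAK kinases, Tyk2, which serves interferon and IL-12 family receptors, rose by 0.31 on the log2 scale from 16.9 to 21.0 FPKM (limma, adjusted p = 0.00107), and Jak3, the partner of the common gamma chain, fell by 0.23 from 77.4 to 66.1 FPKM (limma, adjusted p = 0.0128). The other 2 were not called, and the split was 2 higher and 0 lower under the same-total and T cell marker scalings, where Jak3 was at -0.05 and -0.02. Of the other 6 STAT and SOCS family genes, Socs4 fell by 0.55 and Socs7 by 0.43 on the log2 scale (limma, adjusted p = 0.00114 and 0.000209), and 1 gene was called higher. The remaining 3 were not called. This split of 1 higher and 2 lower became 4 higher and 2 lower after rescaling to the same total and 3 higher and 1 lower after scaling to the T cell markers. Among 10 phosphatases, PIAS proteins and adaptor brakes, 1 was called higher and 3 lower. For this list and the 2 lists before it, the background was 36.5% of all genes tested called, 17.6% higher and 19.0% lower. Ptpn6, which encodes the phosphatase SHP-1, fell by 0.40 on the log2 scale from 125 to 94.7 FPKM (limma, adjusted p = 5.91e-05), Ptpn2, a phosphatase of JAKs and STATs, fell by 0.34 (limma, adjusted p = 0.000815), and Pias3, an inhibitor of STAT3 binding to DNA, rose by 0.43 (limma, adjusted p = 0.0169). Under the same-total and T cell marker scalings the split was 4 higher and 1 lower (all genes: 4900 higher and 1387 lower, and 5127 higher and 1050 lower). Under median-ratio scaling it was 2 higher and 3 lower. The median of the list was at -0.10 as deposited, beside -0.02 for all genes. It was at 0.07 beside 0.15 after rescaling to the same total and at 0.11 beside 0.19 after scaling to the T cell markers. Since a scaling moves all genes by a similar amount, the gap between these medians is nearly fixed. The call of Ptpn2 was lost under the same-total and T cell marker scalings.

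Downstream, well-known target genes of the STATs were listed by factor. Some receptor chains counted above, called ones among them, are counted again in these lists, so the counts are not of separate genes. Of 10 STAT5 targets, 6 were called lower, none higher and 4 were not called, beside 19.0% of all genes called lower and 17.6% called higher. The median log2 fold change of the list was -0.30, beside -0.02 for all genes and -0.29 for the 11 T cell markers. Bcl2, which protects T cells from death, fell from 36.4 ± 1.75 to 22.0 ± 4.45 FPKM (SD, n = 5 each), a log2 fold change of -0.74 (limma, adjusted p = 0.000534). Pim1, a survival kinase, fell by 0.49 on the log2 scale from 126 to 90.0 FPKM (limma, adjusted p = 0.00118), and Ccnd2, a cyclin of early cell cycle entry, fell by 0.41 from 120 to 92.0 FPKM (limma, adjusted p = 0.0174). The split of calls moved with the scaling, to 3 higher and 2 lower after rescaling to the same total and 3 higher and 1 lower after scaling to the T cell markers. The median of the list was then at -0.12 and at -0.089, beside 0.15 and 0.19 for all genes. A scaling moves all genes by a similar amount, so the gap between the medians is nearly fixed and is no separate result. Bcl2 remained called lower under both, Pim1 only under the first and Ccnd2 under neither.

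Of 9 STAT3 targets, 6 passed the filter, and 2 were called higher and 1 lower. One of the higher genes passed only through the samples with acetate, so its call adds no support to the count. For this list and the STAT4 and STAT6 lists below, the background was 36.5% of all genes tested called, 17.6% higher and 19.0% lower. Bcl6, a repressor linked to memory and follicular fates, rose from 1.26 ± 0.186 to 4.06 ± 0.579 FPKM (SD, n = 5 each), a log2 fold change of 1.62 (limma, adjusted p = 2.01e-05). Batf, an AP-1 factor of effector cells, fell by 0.29 (limma, adjusted p = 0.0384) and lost its call under the same-total and T cell marker scalings. These gave 4 higher and 0 lower, and 2 higher and 0 lower, for the STAT3 targets (all genes: 4900 higher and 1387 lower, and 5127 higher and 1050 lower). Of 7 STAT4 targets, Hlx, a partner of T-bet, rose by 1.29 on the log2 scale from 0.264 to 0.786 FPKM (limma, adjusted p = 0.00554) with at most 39 fragments in a sample, Il12rb2, the signaling chain of the IL-12 receptor, rose by 0.23 from 65.3 to 76.8 FPKM (limma, adjusted p = 0.0377), and Tbx21, which encodes T-bet, fell by 0.58 from 53.4 to 35.8 FPKM (limma, adjusted p = 7.55e-05). Hlx passed the filter only through the samples with acetate, where it is high, so its call adds no support to the count. The other 4 were not called. Under each of the scalings the called genes kept their calls and directions and the other 4 stayed uncalled. Some of those 4 turned from below 0 to above 0 under the same-total and T cell marker scalings. Of 5 STAT6 targets, 1 was called, Gata3, a factor of type 2 responses and of CD8+ T cell maintenance, which rose by 0.57 on the log2 scale from 4.53 to 6.78 FPKM (limma, adjusted p = 0.000671). Scaling to the T cell markers gave 2 called, both higher.

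**Figure D4:**
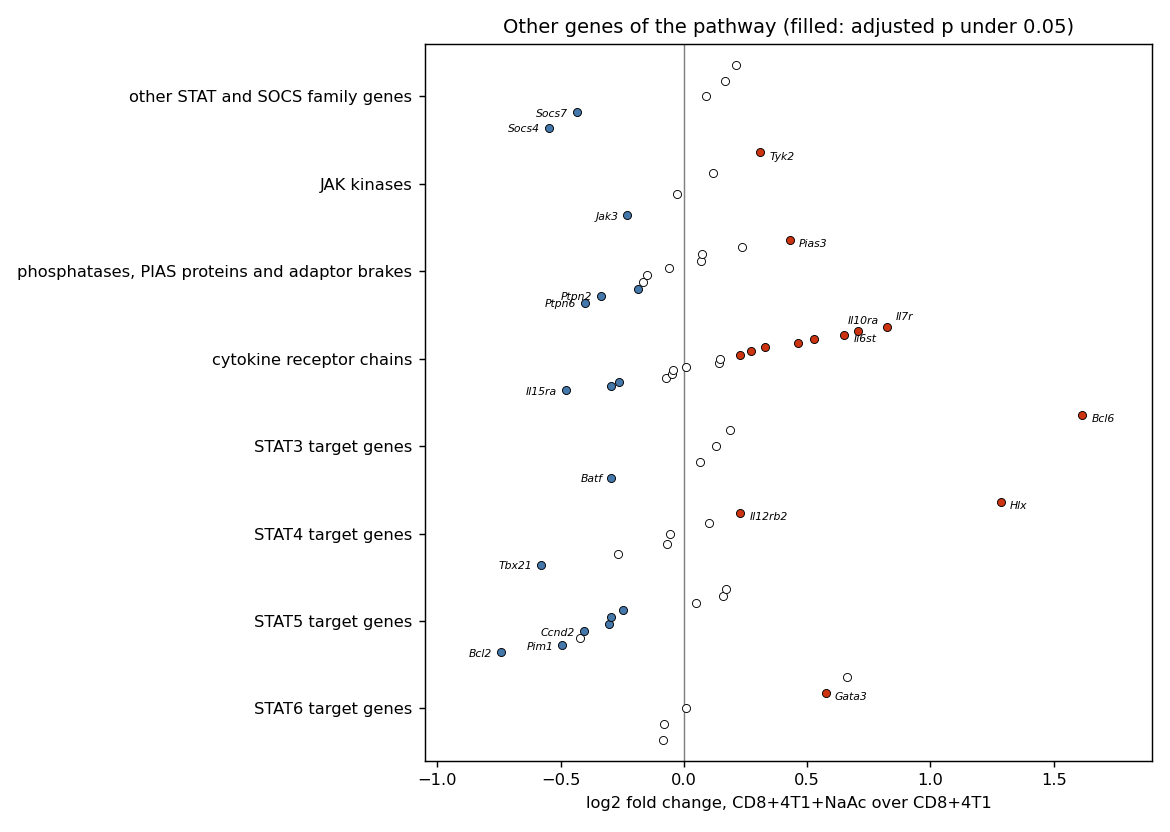
Log2 fold change (horizontal axis, CD8+4T1+NaAc over CD8+4T1) of the tested genes described here in the 8 lists of the pathway; each point is a gene, filled where the adjusted p was under 0.05 (red higher, blue lower), with the genes of the text named. The receptor chains reach from -0.48 to 0.82, and all filled points among the STAT5 targets lie below 0.

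Tumor cell transcripts moved with the groups and stand beside the called members. In replicates 1 to 5 the 20 markers of 4T1 and epithelial cells summed to 27.4, 28.9, 28.7, 41.7 and 39.0 FPKM in CD8+4T1 and to 166, 317, 211, 255 and 145 FPKM in CD8+4T1+NaAc. Of the 20, 12 passed the filter, 9 of them were called higher and none lower, 3 of the 9 having passed only through the samples with acetate, and none of the 20 was at 0 in every sample. Krt8, a keratin of simple epithelia, was at 3.42 and 34.2 FPKM on average, and Spp1 at 12.7 and 78.5 FPKM. Within the samples with acetate, replicate 2 had the highest sum, the highest Socs3 and the lowest Stat3, and replicate 5 the lowest sum, the lowest Socs3 and Socs1 and the highest Stat3. In Socs3, replicates 5, 3, 4 and 2 stood in the same order as in the sum, at 17.9, 22.5, 28.1 and 32.8 FPKM. Replicate 1, second lowest in the sum and the sample with the fewest genes above 0, was second highest in Socs3, at 30.4 FPKM. Socs1 did not follow the order of the sums and was highest in replicates 1 and 4. Stat3 differed little between replicates 1, 3 and 4, at 91.5, 91.4 and 92.0 FPKM. Among the control samples, replicates 4 and 5 had the highest sums and the highest Socs3, while Socs1 was highest in replicate 5 and lowest in replicate 4. The part of these transcripts in the levels of the members was not tested. Of the other cell types, the 8 myeloid markers summed to between 25.2 and 35.3 FPKM without and between 28.3 and 33.3 FPKM with acetate, with 2 of 4 tested genes called higher, 1 of them past the filter only through the samples with acetate. The 5 B cell markers summed to between 3.93 and 4.91 FPKM and between 4.55 and 6.26 FPKM, and none was called. The 4 CD4 T cell markers summed to between 13.8 and 15.9 FPKM and between 12.4 and 18.4 FPKM, with Cd4 itself called higher at 1.60 FPKM. The 4 NK cell markers reached at most 0.292 FPKM, and Klra4 was at 0 in every sample.

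**Figure D5:**
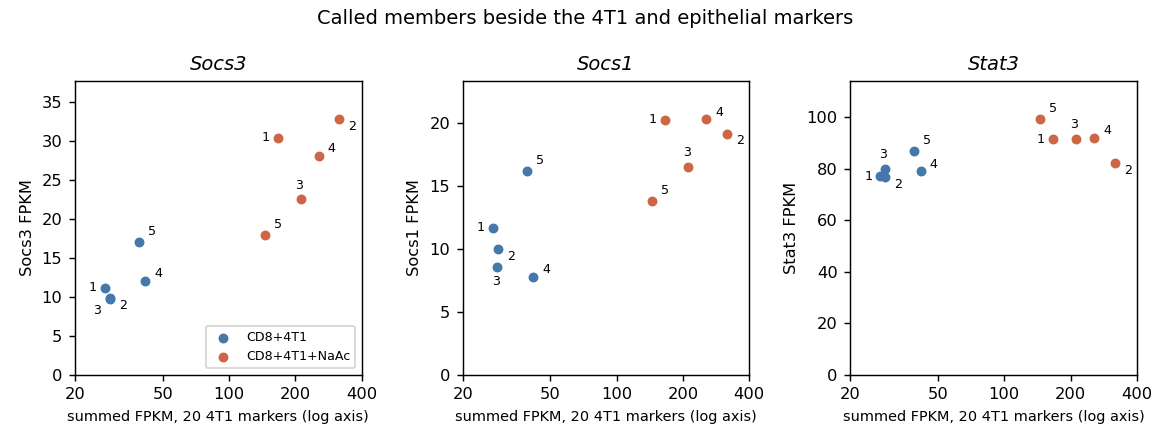
FPKM of Socs3, Socs1 and Stat3 (vertical axes, from 0) against the summed FPKM of the 20 markers of 4T1 and epithelial cells (horizontal axes, log scale) in the 10 samples, labelled by replicate number. The samples with acetate lie between 145 and 317 on the horizontal axis and those without between 27.4 and 41.7.

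Genes whose profile over the 10 samples was nearest to that of the 3 members with the largest fold change were found by the mean absolute difference of centred log2(FPKM + 0.1) among 7052 protein-coding genes that averaged 5 FPKM or more. Nearest to Socs3 were Sdc1, a heparan sulfate proteoglycan of the cell surface, at 0.140, and Cd151, a tetraspanin, at 0.166. Rhob, a small GTPase, was the second nearest to Socs1, at 0.162. Nearest to Cish were Csrnp1 and Ppp1r3b, both at 0.150. Sdc1 rose from 5.05 to 12.5 FPKM and Csrnp1 was at 71.4 FPKM without and 52.5 FPKM with acetate.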

How the data were processed

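Conditions and replicate numbers of the 10 samples (5 per group) were taken from the sample labels, and dose and times from the methods of the study. According to the submitters' processing notes and the methods, the authors used fastp, HISAT2 2.0.5, StringTie 1.3.3b and featureCounts 1.5.0-p3 on NEBNext Ultra libraries, and compared the groups with DESeq2. The genome build and the strand setting are not given in the sources used here. The deposited values are FPKM, 1 column per sample, not pooled, beside the gene length, an unnormalized column of another unit that the authors deposited too. Since FPKM are not counts, a count model was not the main test. FPKM times gene length gave whole fragments for 100% of values within 0.1 of a whole number.

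The 9 members and all gene lists were chosen with earlier results of these data known, and the lists are textbook lists, not gene sets from a database. Of 57825 genes, the 15710 that averaged 0.5 FPKM or more were fitted on log2(FPKM + 0.1) in R 4.3.3 (limma 3.58.1, trend and robust settings on, no covariates), and Benjamini-Hochberg adjustment ran over all of them. A pseudocount of 0.1 understates the change of low genes. Single members and ratios were compared by exact two-sided permutation tests, 5 against 5. The fit was tested on simulated data. The named genes are all members and at most the 3 called genes with the largest fold change of each list. Also named are the receptor chain with the largest fold in each direction and the 2 genes most like each of 3 members. Those 3 members are the ones with the largest fold change, called or not. Krt8, Spp1 and Cd4 were chosen after their values were seen. A few genes that this rule takes are counted in their lists and are not reported here by themselves.

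The alternatives were pseudocounts of 1 and 0.01, no filter, a filter at 5 FPKM, 3 other scalings (to an equal total, by median ratios and to T cell markers), limma with both settings off or with sample weights, voom on the recovered fragments, the replicate number as a block, each sample left out, replicate 1 of both groups left out and an adjusted p under 0.01. Promoter windows and their motif counts come from a RefSeq table of GRCm38.p6, in which 8 of 9 members were found by symbol. Positions of genes are those of the deposited table and are not on GRCm38.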

Additional observations from a re-analysis of the deposited data

Results flagged for a closer look

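Stat6 in the samples with acetate had a sample far from the others. Replicate 1, at 33.2 FPKM, was the lowest, and its gap to the next sample took 0.713 of the range of the group on the log2 scale, just above the limit of 0.71 for 5 samples. Of 24 groups of 5 values checked in this way (9 members and 3 ratios in 2 groups), 1 showed this, and about 1.2 are due by chance. Without this sample the log2 fold change of Stat6 was 0.05 and was not called.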

How the results depend on the processing

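Socs1 and Socs3 remained called higher under every alternative and with any 1 sample left out, with adjusted p from limma between 0.00175 and 0.0371 and between 0.000112 and 0.0120 over the alternatives that kept all samples. Of the members, 3 were called with all choices as reported and 5 after rescaling to the same total, scaling to T cell markers, sample weights, voom, or without replicate 1 of both groups. Rescaling to the same total gave log2 fold changes of 0.11 for Stat4, 0.30 for Stat5a, 0.077 for Stat5b and 0.19 for Stat6, and scaling to T cell markers 0.14, 0.33, 0.11 and 0.22. These follow from a common upward shift, and relative to the median of all genes Stat3 was at 0.21 under each of the 2. Sample weights gave 0.15 for Stat5a and -0.28 for Socs2, and voom -0.57 for Cish, -0.32 for Socs2 and -0.017 for Stat6. Without replicate 1 of both groups, Stat5a was at 0.16, Socs2 at -0.37 and the log2 ratio of Stat5a to Stat5b at 0.23, with an adjusted permutation p of 0.0857, where 4 against 4 samples cannot give an unadjusted p under 0.0286. With each sample left out, the log2 fold change lay between 0.16 and 0.23 for Stat3, between -0.13 and -0.018 for Stat4, between 0.089 and 0.15 for Stat5a, between -0.12 and -0.079 for Stat5b, between -0.011 and 0.046 for Stat6, between -0.65 and -0.39 for Cish and between -0.32 and -0.21 for Socs2. The ratio differences then lay between -0.38 and -0.18 for Cish to Socs2 and between -0.49 and -0.31 for Socs1 to Socs3, and both passed the adjusted test only without CD8+4T1 replicate 4. Of all genes, 5742 were called, and 3733 with a mean of at least 5 FPKM (fewer genes tested). Those 3733 were 1257 higher and 2476 lower, with a median log2 fold change of -0.08 over the genes tested. The count was 3702 at an adjusted p under 0.01, 7594 with sample weights and 6981 without replicate 1 of both groups. It lay between 4947 and 6965 with each sample left out, the most without CD8+4T1+NaAc replicate 1. The list of other STAT and SOCS genes had 6 called after rescaling to the same total, and the STAT6 targets 2 after scaling to T cell markers. Samples with the same replicate number did not deviate together (correlations from -0.03 to 0.07 over all genes, and only numbers 1 and 4 matched their own number best). With the number as a replicate block, the same 3 members were called, 5399 genes in all. The ratio of Stat5a to Stat5b then differed by 0.22 (permutation test, adjusted p = 0.1875), where 5 pairs cannot give an unadjusted permutation p under 0.0625. The causes of these changes were not tested further. Socs2, with 236 to 401 fragments a sample, was the member measured with the least depth.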
